A study of Mus musculus with 8 samples.

Results

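The mouse carboxylesterases *Ces1c*, *Ces1d*, *Ces1e*, *Ces1f*, *Ces1g*, *Ces2a*, *Ces2c*, *Ces2e*, *Ces3a* and *Ces3b* were followed by their gene symbols in liver RNA-seq, as 10 of the 55385 gene identifiers measured. These 10 genes were selected on their levels in the same livers that are described here, so each genotype difference given for them is a description and carries no test. Livers came from 8 male littermates aged 5 weeks after a fast of 16 h, of which 4 were *Usp39*-HKO and 4 were controls, and each mouse gave its own library without pooling. The *Usp39*-HKO mice were *Usp39* fl/fl with loxP sites around exon 2 and carried an Alb-Cre transgene, in which the albumin promoter drives the recombinase in hepatocytes, on a C57BL/6J background. The labels give the control genotype as WT, and the study's methods call them control littermates. USP39 is a factor of the spliceosome, the machine that removes introns. RNA was taken from whole liver, so that fewer cells of a type and less RNA per cell cannot be told apart. Cells in which the recombinase was never active keep intact *Usp39*.

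Carboxylesterases are serine hydrolases of the endoplasmic reticulum that cleave esters and amides, both of drugs and of stored lipids such as triacylglycerol. Liver and intestine are rich in them, and mice carry many tandem copies where humans have few. *Ces1d*, often called triacylglycerol hydrolase, releases fatty acids from stored fat for very low density lipoprotein, and *Ces1g*, another triacylglycerol hydrolase, has been linked to restraint of fat synthesis in the liver. *Ces1c* is secreted into plasma, where it hydrolyses ester drugs.

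In GENCODE vM21 on GRCm38, the annotation used here, the family had 20 genes on chromosome 8 in 2 clusters. The *Ces1* genes of the set lay on the minus strand, from *Ces1c* (chr8:93099015-93131283) to *Ces1g* (chr8:93302369-93337308). The *Ces2* and *Ces3* genes lay on the plus strand, from *Ces2a* (chr8:104734003-104741634) to *Ces3b* (chr8:105083753-105093929). Coding sequences of 2 *Ces1* members were between 73.56% and 81.53% identical and those of 2 *Ces2* members between 82.62% and 83.72%. *Ces3a* and *Ces3b* were 95.27% identical. Pairs from different subfamilies were between 58.79% and 61.99% identical.

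All 10 coding sequences, of 554 to 571 codons, held the stretch around the catalytic serine that marks serine hydrolases. It is shown for a typical member and for those that depart from it, read 5′ to 3′ on the coding strand with the serine codon in capitals. The codon before the serine coded for glutamate in 7 of the 10 genes, for valine in *Ces2a*, and for asparagine in *Ces3a* and *Ces3b*, the pair whose levels differed most between genotypes.
Ces1d (chr8:93187755-93187787, minus strand): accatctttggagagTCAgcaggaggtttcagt
Ces1c (chr8:93123112-93123144, minus strand): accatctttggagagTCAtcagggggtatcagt
Ces2a (chr8:104737401-104737433, plus strand): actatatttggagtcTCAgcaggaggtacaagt
Ces3a (chr8:105051577-105051609, plus strand): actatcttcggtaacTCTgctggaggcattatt
Ces3b (chr8:105086667-105086699, plus strand): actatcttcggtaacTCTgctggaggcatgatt

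The last 4 codons are shown because they can code for a signal that bears on where these enzymes reside. In 7 of the 10 members they coded for histidine, any residue, glutamate and leucine, a signal that holds a protein in the endoplasmic reticulum. *Ces1c* lacked it. *Ces3a* and *Ces3b* had proline in place of the histidine, and where their proteins reside was not measured. Capitals mark the 4 codons and lower case the stop codon.
Ces1d (chr8:93166258-93166269, minus strand): CATGTTGAGCTCtga
Ces1c (chr8:93099168-93099179, minus strand): ACAGAACACAAAtga
Ces2a (chr8:104741402-104741413, plus strand): CATGCAGAGCTGtag
Ces3b (chr8:105093248-105093259, plus strand): CCAGAGGAGCTCtga

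The similarity of *Ces3a* and *Ces3b* bears on their read counts. Their longest identical run of coding sequence was 194 bases. The stretch of 60 coding bases in which they differed most, positions 758 to 817 counted from the first base of the start codon, had 13 mismatches, marked in capitals on the plus strand.
Ces3a (chr8:105051766-105051825): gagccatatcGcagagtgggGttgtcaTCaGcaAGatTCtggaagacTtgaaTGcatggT
Ces3b (chr8:105086856-105086915): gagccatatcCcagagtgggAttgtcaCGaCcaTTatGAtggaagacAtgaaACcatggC
Of all stretches of 100 bases in the transcripts of *Ces3a*, 6.88% also occurred in *Ces3b*, and 7.04% of those of *Ces3b* occurred in *Ces3a*. *Ces2c* shared 13.6% of such stretches with other genes, mostly the pseudogene *Ces2d-ps*, *Ces2a* shared 8.13% with *Gm7208* and *Ces1c* shared 1.03% with *Ces1b*. *Ces1d*, *Ces1e*, *Ces1f*, *Ces1g* and *Ces2e* shared none. How reads that match several genes were counted is not given in the sources used here, so the values of *Ces3a*, *Ces3b*, *Ces2a* and *Ces2c* are uncertain by the reads from such stretches.

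Counts on genes summed to between 8589636 and 10418450 per mouse, and 3 counts, taken as the floor, were between 0.288 and 0.349 CPM, a limit of counting error alone since PCR reads are not independent molecules. *Usp39* itself was at 9.35, 10.4, 8.76 and 9.78 FPKM (counts scaled to exon length and to the total of the mouse) in controls A468, A472, A473 and A475. It was at 8.37, 8.63, 8.70 and 8.07 FPKM in *Usp39*-HKO mice A469, A470, A471 and A474. Each of these lay below every control, with a log2 fold change of -0.41 (SE 0.11, adjusted p = 0.0212 with edgeR's quasi-likelihood test). This gene-level count includes the exons outside the floxed exon and therefore does not measure the deletion itself. The labels name no batch. Without further scaling, *Usp39*-HKO mice were 0.17 higher at the median gene on the log2(FPKM + 1) scale. The log2 fold changes below are *Usp39*-HKO over control from the counts with TMM factors, which remove that shift, whereas FPKM are given as deposited.

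At the level of the family, the *Ces3* pair was low in *Usp39*-HKO livers on either scale, while the sums of the *Ces1* and *Ces2* members overlapped between genotypes and their ratios depended on the scaling. The 10 members summed to 2208 ± 88.2 FPKM (SD, n = 4) in controls, between 2093 in A473 and 2307 in A468. In *Usp39*-HKO mice they summed to 1664 ± 278 FPKM (SD, n = 4), with 1801 in A469, 1540 in A470, 1971 in A471 and 1342 in A474. All 4 *Usp39*-HKO sums were thus below the lowest control sum, and the ratio of the means was 0.753, or 0.645 when FPKM were divided by the TMM factors, a setting added after the data were seen. The members took 0.542% of all counts in controls and 0.401% in *Usp39*-HKO mice.

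The sum of the *Ces3* pair was 679 ± 45.6 FPKM in controls and 177 ± 119 FPKM in *Usp39*-HKO mice (SD, n = 4 each), and the ranges were far apart, from 631 to 739 and from 32.02 to 303. The 5 *Ces1* members summed to 1362 ± 116 and 1282 ± 233 FPKM (SD, n = 4 each), with overlapping ranges. For the 3 *Ces2* members the sums were 167 ± 9.79 and 204 ± 36.5 FPKM (SD, n = 4 each). Here the *Usp39*-HKO range enclosed that of controls, 156 to 180 FPKM. A469 lay below all controls at 149 FPKM and the other *Usp39*-HKO mice lay above them. The ratios of the means were 0.261 for *Ces3*, 0.941 for *Ces1* and 1.22 for *Ces2* in FPKM, and 0.226, 0.806 and 1.03 after division by the TMM factors, where the ranges of *Ces1* and *Ces2* again overlapped. The composition of the pool therefore differed: the mean share of *Ces3a* was 25.7% in controls and 9.29% in *Usp39*-HKO mice, that of *Ces3b* 5.14% and 0.913%. *Ces1c* held 36.6% of the sum in controls and 47.9% in *Usp39*-HKO mice, *Ces1g* 4.08% and 9.80%, and *Ces2e* 2.69% and 8.07%.

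**Figure D1:**
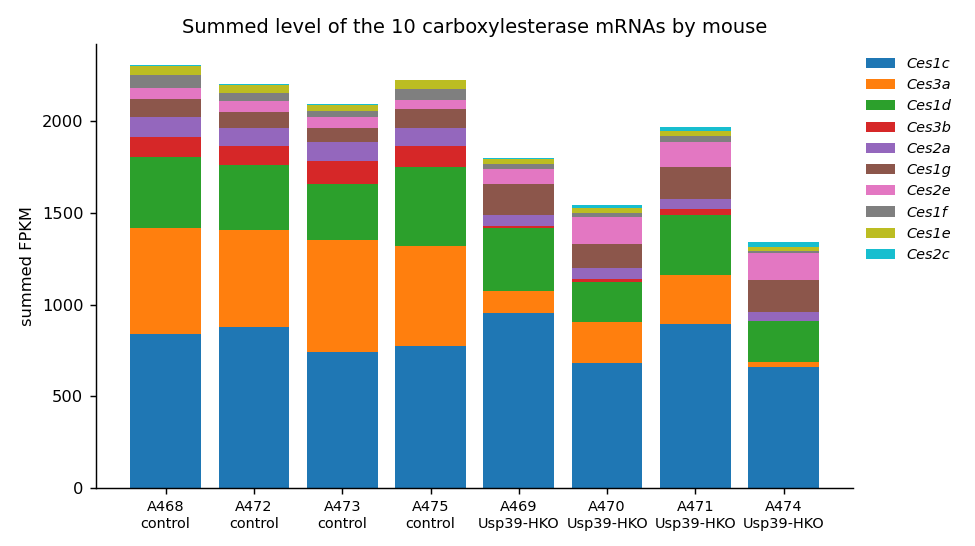
Stacked FPKM of the 10 carboxylesterase mRNAs in each of the 8 mice (vertical axis: summed FPKM; 1 bar per mouse, control mice at left). The orange and red segments of *Ces3a* and *Ces3b* are smaller in each *Usp39*-HKO mouse than in any control and almost vanish in A474, whose bar is the lowest at 1342 FPKM, while the blue *Ces1c* segment is of similar height in both groups.

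Across all 14340 genes tested, 11.6% passed an adjusted p under 0.05 as lower and 10.9% as higher in *Usp39*-HKO mice. Among the members, 6 of 10 passed as lower, 3 of 10 as higher and *Ces1c* did not pass, which is printed beside the background and not read as support since this contrast was known when the genes were picked. All 10 members were at or above 0.5 FPKM in each of the 8 mice, so none entered the test through its higher group alone. On FPKM, the ranges of the genotypes did not overlap for 4 members that were lower, *Ces1e*, *Ces2a*, *Ces3a* and *Ces3b*, against 4.81% of all tested genes. They did not overlap for 2 members that were higher, *Ces1g* and *Ces2e*, against 23.9% of all tested genes. The median log2 fold change was -0.82 over the members and -0.0015 over all tested genes.

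**Figure D2:**
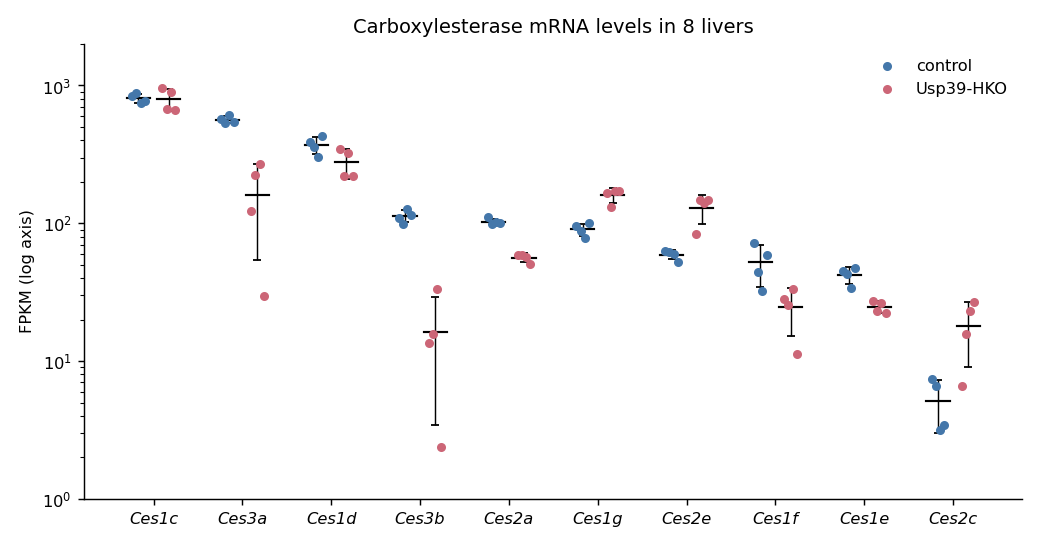
FPKM of each member in each mouse on a log axis, ordered by the control mean (blue points: 4 control mice; red points: 4 *Usp39*-HKO mice; bars: mean and SD). *Ces1c* is highest in both groups, with 2 *Usp39*-HKO mice below and 2 above the controls, though none is above them after TMM scaling. *Ces3b* lies between 99.6 and 128 FPKM in controls and between 2.39 and 33.5 FPKM in *Usp39*-HKO mice.

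*Ces3a* and *Ces3b*, liver carboxylesterases whose own substrates are less well defined, stood lowest against their controls. *Ces3b* was at 110, 99.6, 128 and 115 FPKM in controls A468, A472, A473 and A475. It was at 13.5, 15.8, 33.5 and 2.39 FPKM in *Usp39*-HKO mice A469, A470, A471 and A474. Every *Usp39*-HKO liver was therefore well below every control, with a mean at 14.4% of the control mean and a log2 fold change of -3.00 (SE 0.54). A474 had the lowest *Ces3b*, and without it the log2 fold change was -2.63 (SE 0.28) and the *Usp39*-HKO mean 20.9 ± 10.9 FPKM (SD, n = 3).

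*Ces3a* was at 576, 532, 611 and 546 FPKM in controls A468, A472, A473 and A475, and at 123, 223, 269 and 29.6 FPKM in A469, A470, A471 and A474. Again the groups were separate and A474 was lowest. The log2 fold change was -2.02 (SE 0.50), and -1.67 (SE 0.22) without A474. *Ces3a* thus went from the second most abundant member in controls to a level whose range overlapped those of *Ces1d* and *Ces1g* in *Usp39*-HKO mice.

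Both paralogs were low in the same mice, but not in a fixed proportion. The ratio of *Ces3a* to *Ces3b* FPKM was 5.23, 5.34, 4.78 and 4.75 in controls A468, A472, A473 and A475, a mean of 5.02 ± 0.304 (SD, n = 4). It was 9.13, 14.1, 8.03 and 12.4 in A469, A470, A471 and A474, a mean of 10.9 ± 2.82 (SD, n = 4). The ratio was thus higher in each *Usp39*-HKO mouse than in any control, that is, *Ces3b* was further below its control level than *Ces3a*. The part of reads shared between the paralogs in this ratio was not tested.

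Of the *Ces1* members, *Ces1d*, *Ces1e* and *Ces1f* lay on the lower side, *Ces1g* on the higher side and *Ces1c* was close to its control level in mean FPKM. *Ces1c* was the most abundant member in both groups, with 840, 877, 741 and 772 FPKM in A468, A472, A473 and A475 and 951, 680, 894 and 659 FPKM in A469, A470, A471 and A474. In FPKM, A470 and A474 lay below all controls and A469 and A471 above all controls, and the mean was 98.6% of the control mean. After TMM scaling A470 and A474 were still below all controls, but no *Usp39*-HKO mouse was above them. The log2 fold change of *Ces1c* was -0.24 (SE 0.17), and the value closest to 0 over all settings was -0.018.

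*Ces1d*, the triacylglycerol hydrolase, was at 389, 356, 305 and 432 FPKM in A468, A472, A473 and A475 and at 343, 219, 325 and 220 FPKM in A469, A470, A471 and A474. In FPKM, A470 and A474 lay below all controls, while A469 and A471 lay within the control range. After TMM scaling A471 also lay below all controls. The log2 fold change was -0.64 (SE 0.20).

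*Ces1e*, known as egasyn, which retains beta-glucuronidase in the endoplasmic reticulum, was at 45.1, 43.0, 34.0 and 47.7 FPKM in A468, A472, A473 and A475. It was at 27.4, 23.1, 26.3 and 22.4 FPKM in A469, A470, A471 and A474. These groups did not overlap and the *Usp39*-HKO values were tightly placed, with a log2 fold change of -1.001 (SE 0.14).

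*Ces1f*, a second triacylglycerol hydrolase, varied in both groups. It was at 72.2, 44.7, 32.2 and 59.0 FPKM in A468, A472, A473 and A475 and at 28.1, 25.6, 33.4 and 11.3 FPKM in A469, A470, A471 and A474. A471 exceeded control A473 in FPKM, and this overlap disappeared after TMM scaling. The log2 fold change was -1.29 (SE 0.33).

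*Ces1g* went the other way. It was at 95.0, 88.1, 77.9 and 99.7 FPKM in A468, A472, A473 and A475 and at 166, 131, 171 and 172 FPKM in A469, A470, A471 and A474. All *Usp39*-HKO mice were above all controls, A470 by the smallest margin, and the log2 fold change was 0.59 (SE 0.13). The means of *Ces1g* and *Ces1d* were 90.2 and 370 FPKM in controls, and 160 and 277 FPKM in *Usp39*-HKO mice.

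The *Ces2* genes encode lipases that act well on diacylglycerol as well as on drug esters, and the 3 members did not move together. *Ces2a* was at 110, 98.4, 102 and 100.3 FPKM in A468, A472, A473 and A475 and at 58.6, 59.3, 57.2 and 50.4 FPKM in A469, A470, A471 and A474. It had the smallest scatter within either group, on the log2 scale after TMM scaling, with an SD of 0.086 in controls and 0.198 in *Usp39*-HKO mice. The groups did not overlap, with a log2 fold change of -1.09 (SE 0.12).

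*Ces2e* was at 62.4, 61.7, 60.1 and 52.8 FPKM in A468, A472, A473 and A475. It was at 84.0, 148, 140 and 147 FPKM in A469, A470, A471 and A474. The groups were separate, although A469 stayed closer to the controls, and the log2 fold change was 0.88 (SE 0.15).

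*Ces2c*, the least abundant member in controls, was at 7.39, 6.63, 3.14 and 3.47 FPKM in A468, A472, A473 and A475 and at 6.63, 15.6, 23.1 and 26.7 FPKM in A469, A470, A471 and A474. A469 lay within the control range and the other *Usp39*-HKO mice lay above it. The log2 fold change was 1.54 (SE 0.38). *Ces2c* rested on 62 to 581 counts per mouse, compared with 14517 to 21476 for *Ces1c*.

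**Figure D3:**
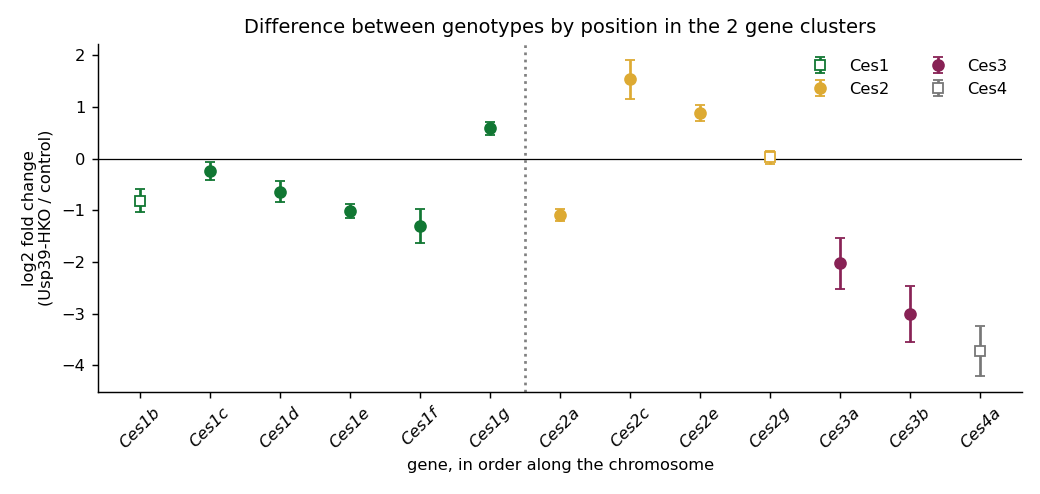
Log2 fold change (*Usp39*-HKO over control, points) with its SE (bars) for the 10 members (filled circles) and the other 3 tested carboxylesterases (open squares), in order along the chromosome. The dotted line separates the 2 clusters. In the first cluster *Ces1b* stands at -0.81, the members go from -0.24 at *Ces1c* to -1.29 at *Ces1f*, and *Ces1g* is at 0.59. In the second the value is -1.09 at *Ces2a*, 1.54 at *Ces2c* and -3.00 at *Ces3b*, and *Ces4a* ends it at -3.72.

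Adjacent genes did not share a direction throughout. *Ces1f* at -1.29 and *Ces1g* at 0.59 on the log2 scale are neighbours among the annotated genes of the family, and so are *Ces3a* and *Ces3b*, which were both low. Within *Ces2*, the coding sequences of *Ces2a*, *Ces2c* and *Ces2e* were at least 82.62% identical, and their log2 fold changes were -1.09, 1.54 and 0.88.

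The order of levels also differed between the genotypes. In controls it was *Ces1c*, *Ces3a*, *Ces1d*, *Ces3b*, *Ces2a*, *Ces1g*, *Ces2e*, *Ces1f*, *Ces1e* and *Ces2c*, by mean FPKM. The ranges of neighbours overlapped for *Ces3b* and *Ces2a*, *Ces2a* and *Ces1g*, *Ces2e* and *Ces1f*, and *Ces1f* and *Ces1e*. In *Usp39*-HKO mice the order was *Ces1c*, *Ces1d*, *Ces3a*, *Ces1g*, *Ces2e*, *Ces2a*, *Ces1e*, *Ces1f*, *Ces2c* and *Ces3b*. There, *Ces1c* stood apart from the next member, *Ces1d*, *Ces3a*, *Ces1g* and *Ces2e* overlapped from each to the next, and so did the last 4.

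The scatter between mice was larger in the *Usp39*-HKO group for each of the 10 members. The SD of log2 FPKM after TMM scaling had a median over the members of 0.148 in controls and 0.394 in *Usp39*-HKO mice, beside 0.197 and 0.233 over all tested genes. It was higher in the *Usp39*-HKO group for 59.7% of all tested genes. *Ces3b* differed 14.05-fold between the highest and the lowest *Usp39*-HKO mouse and 1.28-fold between controls, and *Ces3a* 9.08-fold and 1.15-fold. A474 was the lowest of its group for 6 members in FPKM and for 7 after TMM scaling, as it was for 23.5% of all tested genes after that scaling.

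**Figure D4:**
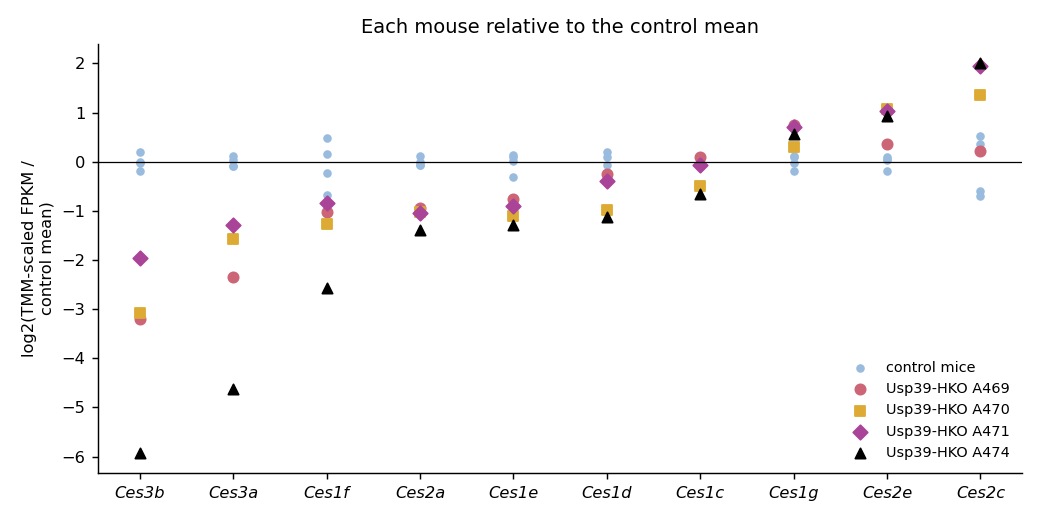
Log2 of TMM-scaled FPKM over the control mean for each member and mouse (pale points: 4 control mice; large symbols: each *Usp39*-HKO mouse). The black triangles of A474 are lowest for *Ces3b* at -5.94, *Ces3a* at -4.62 and *Ces1f* at -2.57, and A474 is the highest of its group for *Ces2c*.

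Markers of other liver cells moved with the genotype. Of the cholangiocyte markers *Sox9*, *Krt19*, *Spp1* and *Epcam* rose, and *Krt7* was too low to be tested. *Sox9* passed in 5 of 14 other settings, and A469 lay within its control range. *Krt19*, *Spp1* and *Epcam* passed in all other settings. *Cldn4* was tested through its *Usp39*-HKO values alone (at most 0.333 FPKM in controls and 0.737 to 2.96 FPKM in *Usp39*-HKO mice). All 6 on the list summed to between 26.5 and 29.0 FPKM in controls and between 64.8 and 288 FPKM in *Usp39*-HKO mice. *Spp1* made up most of this sum in every mouse, so the sum mainly describes that gene. Among *Usp39*-HKO mice, each of the 6 genes was highest in A474 and lowest in A469. Of the stellate cell markers 7 of 8 rose, summing to between 67.0 and 77.2 FPKM in controls and between 110 and 211 FPKM in *Usp39*-HKO mice. *Lrat* passed in 9 of 15 other settings, and the others that rose passed in all 15. Of the macrophage markers 5 of 7 rose, from 201 to 285 FPKM in controls and from 355 to 561 FPKM in *Usp39*-HKO mice. *Clec4f* passed in 9 and *Csf1r* in 11 of 15 other settings, and the others that rose in at least 14. All 3 sums were highest in A474, where *Ces3a* and *Ces3b* were lowest. All 3 were lowest among *Usp39*-HKO mice in A469, where *Ces3b* was at 13.5 FPKM beside 99.6 to 128 FPKM in controls. The part of these other liver cells in the members' levels was not tested.

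Of the 10 hepatocyte markers, 3 fell, *Apob*, *Cps1* and *Serpina1b*, none rose, and the median log2 fold change was -0.39. These calls depended on the settings: *Apob* passed in 8, *Cps1* in 5 and *Serpina1b* in 4 of 15 other settings. Their sum, to which *Alb* contributed most, was between 18208 and 19685 FPKM in controls and between 16079 and 21635 FPKM in *Usp39*-HKO mice. Of the endothelial markers 2 of 6 fell, *Lyve1* and *Stab2*, which passed in 14 and 3 of 15 other settings. Both tested erythroid markers fell, all 3 proliferation markers rose, and of the adipocyte markers *Cidec*, a lipid droplet gene that fatty hepatocytes also express, rose. *Cidec* passed in 12 of 15 other settings. The adipocyte markers *Adipoq* and *Plin1* were at or below 0.169 FPKM in every mouse, *Lep* was listed at 0, and *Fabp4* did not pass (adjusted p = 0.263 with edgeR). Markers of pancreatic acinar cells, of which 1 of 11 was tested and did not pass, summed to 669.5 FPKM in control A475 and to between 2.92 and 3.59 FPKM in the other controls. Without A475, 5 members passed as lower and 3 as higher. The part of these cells in the members' values was not tested.

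The table held 10 other genes of the family, and these were weak apart from *Ces1b* and *Ces2g*. The pseudogene *Ces2d-ps*, which has no symbol in the table, had at most 8 counts in a mouse. *Ces2f* and *Ces5a* had no count in any mouse, and *Ces1a*, *Ces1h*, *Ces2b* and *Ces2h* had at most 9 counts in a mouse, so that no difference was detectable at this depth. Of the 3 that were tested, *Ces1b* passed as lower, *Ces2g* did not pass, and *Ces4a* is given as a description, since it entered the test through its controls alone. *Ces1b* was at 86.7, 61.1, 83.6 and 90.4 FPKM in A468, A472, A473 and A475 and at 71.9, 45.6, 59.6 and 36.0 FPKM in A469, A470, A471 and A474. Its groups overlapped through control A472 and *Usp39*-HKO mouse A469. Its log2 fold change was -0.81 (SE 0.23, adjusted p = 0.0250 with edgeR), and the adjusted p was over 0.05 in 6 of 15 other settings, both limma fits and the fits without A468, A470, A473 or A475, at most 0.0700.

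*Ces4a* was at 1.25 ± 0.681 FPKM in controls and 0.106 ± 0.0442 FPKM in *Usp39*-HKO mice (SD, n = 4 each). This was from 2 to 47 counts per mouse, and at or above 0.5 FPKM in the 4 controls but in no *Usp39*-HKO mouse. Its log2 fold change was -3.72 (SE 0.49), and -0.98 on log2(FPKM + 1) with limma. *Ces2g* was at 11.7 ± 1.28 and 14.1 ± 2.44 FPKM (SD, n = 4 each). Its log2 fold change of 0.03 (SE 0.13, adjusted p = 0.910 with edgeR) did not pass and changed sign with the filter and with some mice left out.

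Of 13 other genes that act on neutral lipids, 11 were tested, 2 fell, 1 rose and 8 did not pass, shares near the 11.6% lower and 10.9% higher of all tested genes, with a median log2 fold change of -0.19 beside -0.0015 for all tested genes. *Lpl*, lipoprotein lipase, rose from 14.5 ± 0.821 to 35.3 ± 16.6 FPKM (SD, n = 4 each), with a log2 fold change of 1.02 (SE 0.23, adjusted p = 0.00894 with edgeR). *Aadac*, arylacetamide deacetylase, an endoplasmic reticulum hydrolase related to hormone-sensitive lipase, fell by 0.47 on the log2 scale (SE 0.11, adjusted p = 0.0118 with edgeR), though it did not pass with limma or without scaling factors (adjusted p between 0.0561 and 0.0819). *Pnpla8*, a phospholipase, passed narrowly at -0.38 (SE 0.13, adjusted p = 0.0490 with edgeR) and did not pass in 11 of 15 other settings, among them the fits without A468, A469, A471, A473, A474 or A475. *Pnpla2*, the main triacylglycerol lipase of lipid droplets, had a log2 fold change of 0.38 (SE 0.19, adjusted p = 0.180 with edgeR).

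Of 11 other hydrolases of esters, lactones and epoxides, 10 were tested, 5 fell, none rose and 5 did not pass. Of all tested genes 11.6% passed as lower and 10.9% as higher. The median log2 fold change of the list was -0.41, beside -0.39 for the hepatocyte markers. The paraoxonase *Pon1*, an enzyme carried on high density lipoprotein, fell by 1.01 on the log2 scale (SE 0.18, adjusted p = 0.00320 with edgeR). *Ephx2*, soluble epoxide hydrolase, fell by 0.91 (SE 0.14, adjusted p = 0.00189 with edgeR). *Cmbl* fell by 0.63 and *Bphl* by 0.60, both of which activate ester prodrugs (adjusted p = 0.00603 and 0.00541 with edgeR), and *Aadac*, also on this list, was the remaining one.

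Of 10 transcription factors known to act on carboxylesterase or other xenobiotic enzyme genes, 5 fell, 2 rose and 3 did not pass, beside 11.6% lower and 10.9% higher of all tested genes. When 1 mouse was left out, 5 to 7 of these factors passed in all. *Nr1i3*, the xenobiotic receptor CAR, fell from 11.4 ± 1.83 to 5.35 ± 0.887 FPKM (SD, n = 4 each), a log2 fold change of -1.31 (SE 0.16, adjusted p = 0.000758 with edgeR). *Ppara*, the fatty acid receptor of fasting, fell by 0.83 (SE 0.13) and *Cebpa*, a hepatocyte factor, by 0.67 (SE 0.14) on the log2 scale. *Onecut1* rose by 1.22 (SE 0.28) from a low level. The others that passed, *Nr1h4* (-0.50, adjusted p = 0.0309 with edgeR), *Nr3c1* (-0.33, adjusted p = 0.0496 with edgeR) and *Nfe2l2* (0.43), and *Pnpla2* and the marker genes above, are named after their values were seen. *Nr3c1* passed in 2 and *Nr1h4* in 5 of 15 other settings, with adjusted p up to 0.594 and 0.114. The part of these factors in the members' levels was not tested.

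**Figure D5:**
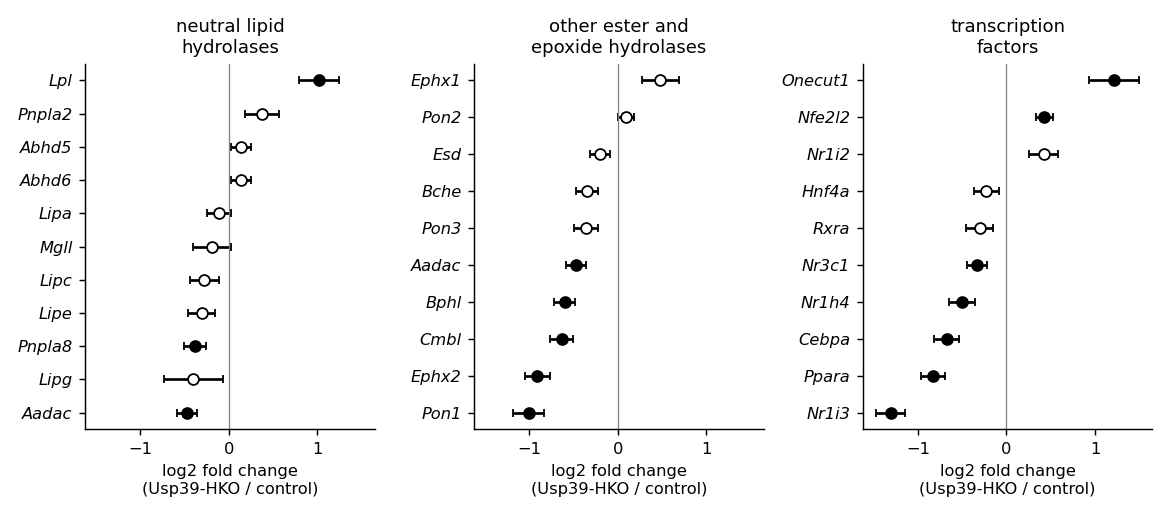
Log2 fold change (*Usp39*-HKO over control, points) with its SE (bars) for the tested genes of 3 lists related to the carboxylesterases (filled points: adjusted p under 0.05 in edgeR). *Lpl* at 1.02 is the filled point on the right in the left panel, the 5 filled points of the middle panel lie to the left of 0, and *Nr1i3* at -1.31 is the lowest in the right panel.

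By pattern over the 8 mice, the genes most like *Ces3b* were sought among 6665 tested genes with a mean of at least 5 FPKM, using the root mean square difference of log2(FPKM + 1) from the control mean. The nearest was a long intergenic RNA gene without a symbol in the table (ENSMUSG00000117780) at a difference of 0.365, followed by *Serpina1e*, an alpha-1 antitrypsin gene, at 0.473 and *Mup3*, a major urinary protein gene, at 0.499. *Serpina1e* was at 1914, 1133, 1630 and 1706 FPKM in A468, A472, A473 and A475 and at 89.5, 193, 615 and 54.9 FPKM in A469, A470, A471 and A474. Among the *Usp39*-HKO mice it was highest in A471 and lowest in A474, as *Ces3b* was. This likeness is built in, since the search used these same mice. *Serpina1e* and *Mup3* belong to families of near-identical copies, so their own values are uncertain. For *Ces1c*, whose mean FPKM was close to that of controls, the nearest were *Tsr3* at 0.0640, *Zmat2* at 0.0737 and *Alkbh7* at 0.0811.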

How the data were processed

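The authors trimmed reads with Trim Galore (0.6.1 in the submitters' processing notes), aligned them to mm10 with HISAT2, and counted them per gene with featureCounts. They deposited raw counts and FPKM in a single table of 55699 rows. Of these, 314 were further rows of an identifier already listed, and each identifier was read once. The deposited FPKM equal the count divided by exon length and by the total count of the mouse. Columns of the authors' own DESeq2 comparison (fold changes, p-values) were not used. The annotation release, strandedness and treatment of multiply mapped reads are not given in the sources used here, but exon lengths of all 20 family genes in GENCODE vM21 equal those of the table.

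The fit used edgeR 4.0.16 (R 4.3.3), quasi-likelihood, on counts with TMM factors (0.911 to 0.940 in controls, 1.01 to 1.19 in *Usp39*-HKO mice), for 14340 genes at or above 0.5 FPKM in at least 4 mice. P-values are two-sided and Benjamini-Hochberg adjusted over all tested genes. The SE of a log2 fold change was derived from this test, as its absolute value divided by the square root of the F statistic. A gene passed at an adjusted p under 0.05, and "rose" and "fell" are used of such genes. The test was first tested on simulated data. Mice of a genotype differed by more than counting error. Alternatives used median-ratio factors, DESeq2 1.42.0, limma 3.58.1 on log2(FPKM + 1) or log2(FPKM + 0.1), other filters, no scaling factors, the cutoff of the study, and each mouse left out.

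The members, gene lists and markers were chosen with earlier results of these data known. Named genes were all members, other carboxylesterases that passed or had a mean of at least 0.5 FPKM, up to 4 passing genes per list by size of change, and the 3 genes nearest in pattern to the most reduced and to the most abundant member.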

Additional observations from a re-analysis of the deposited data

Results flagged for a closer look

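In 78 groups of 4 mice, formed within each genotype by *Usp39*, the members, the tested and listed genes that were named by rule, the family sums and the marker sums, 7 groups had 1 mouse far from the rest by Dixon's criterion at 95%, which chance gives in about 1 of 20 groups. Several of these groups share genes and are not independent. *Ces1g* was at 131 FPKM in *Usp39*-HKO mouse A470 and between 166 and 172 FPKM in the other *Usp39*-HKO mice. *Ces2e* was at 84.0 FPKM in A469 and between 140 and 148 FPKM in the others. The sum of the *Ces2* members was likewise 149 FPKM in A469 and between 220 and 224 FPKM in the others. The sum of the *Ces1* members was 1190 FPKM in control A473 and between 1408 and 1441 FPKM in the other controls. *Ces4a* was at 0.172 FPKM in A471 and between 0.0806 and 0.0867 FPKM in the others, which rests on a few counts. Pancreatic acinar markers summed to 669.5 FPKM in control A475 and to between 2.92 and 3.59 FPKM in the other controls. The adipocyte list summed to 115 FPKM in control A472 and to between 52.1 and 62.6 FPKM in the other controls, of which *Cidec* alone was 107 FPKM in A472, while *Adipoq* and *Plin1* were at 0.0730 and 0.0217 FPKM there and *Lep* was listed at 0.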

How the results depend on the processing

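Over all settings the 10 members kept the sign of their log2 fold change. Passing members were counted in all settings but limma on log2(FPKM + 0.1), with 4 to 6 lower and 3 higher. The lower count was 4 without A468, 5 without A470, A472, A473, A474 or A475, and 6 without A469 or A471. Without scaling factors 696 genes passed as lower and 3525 as higher, and with limma on log2(FPKM + 1) 637 and 3031, while 5 and 3 members did so in each. A mean of at least 5 FPKM left 845 lower and 750 higher genes. With 1 mouse left out, 949 to 1666 genes passed as lower and 982 to 1847 as higher, and 1 to 2 of the other carboxylesterases passed, which was 1 with limma and with the filter at 5 FPKM (*Ces4a* was not in the latter). With the cutoff of the study 1 neutral lipid gene passed. Without TMM factors the log2 fold changes of *Ces1e*, *Ces1g* and *Ces2a* were -0.77, 0.83 and -0.86. With limma they were -0.74, 0.82 and -0.85 on log2(FPKM + 1) and -0.77, 0.82 and -0.86 on log2(FPKM + 0.1), scales to which no factor was applied. That of *Ces2g* was -0.00023 without the filter and between -0.049 and 0.093 with 1 mouse left out. Leaving out 1 mouse gave -3.62 to -2.63 for *Ces3b*, -2.39 to -1.67 for *Ces3a*, -1.48 to -1.03 for *Ces1f*, 1.34 to 1.82 for *Ces2c*, -0.36 to -0.13 for *Ces1c*, and 0.707 to 0.802 for the ratio of summed FPKM. No paired analysis was possible because the labels give no replicate numbers that the genotypes share.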
